A study of Mus musculus with 6 samples.

Results

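Basal4 is a *Krt13*-rich cluster in cultured mouse tracheal epithelium, called squamous and hillock-like here. The name applies unevenly, since basal cell genes are higher in a part of Basal4. Its members were the cells that carry the name Basal4 in the annotation deposited by the authors, and there were 1365 of them among 23871 cells in 16 annotated types. The study isolated tracheal epithelial cells, grew them with their apical side exposed to air, and profiled the cultures by droplet single-cell RNA-Seq (scRNA-Seq). The 3′ ends of transcripts were tagged with unique molecular identifiers (UMIs), so that every value is a count of molecules. The groups were 3 *WT/WT* mice (WT1, WT2 and WT3) and 3 *MIS/MIS* mice (MT1301, MT1306 and MT1383). *MIS* is an edited missense allele of *Dnaaf5*, a gene for a cytoplasmic factor that assembles dynein motors, in which a cysteine codon was changed to a phenylalanine codon. All mice were C57BL/6 and 12 weeks old, the *MIS* allele was present in every cell of the *MIS/MIS* animals, and each library came from the cultured cells of 1 animal, so the mouse was the replicate. Averaged over mice, *Dnaaf5* was at 20.6 to 68.4 CPM (UMI counts scaled to the same total of 1000000 in each sum) in the 4 multiciliated clusters and at 5.05 CPM in Basal4. In Basal4 cells its level was 6.31 and 5.21 CPM in WT1 and WT3 and 3.79 and 4.87 CPM in MT1306 and MT1383, and a missense allele need not change the level of its transcript.

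Basal cells are the stem cells of the tracheal epithelium. They rest on the basement membrane, express the transcription factor *Trp63* and the keratin pair *Krt5* and *Krt14*, and give rise to secretory and multiciliated cells. Hillocks are small stratified patches in the mouse trachea in which *Krt13*-positive cells lie over a basal layer and resemble the squamous lining of the mouth and oesophagus more than a ciliated surface. Squamous cells reinforce their keratin network and desmosomes as they move up, and finally crosslink proteins under the plasma membrane into a cornified envelope by means of transglutaminases.

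The cluster was spread very unevenly over the mice. It held 1048 of 2842 cells in WT1 (36.9%, exact 95% binomial interval 35.1 to 38.7), 2 of 4844 in WT2 (0.0413%, 0.00500 to 0.149) and 167 of 2771 in WT3 (6.03%, 5.17 to 6.98). Among *MIS/MIS* mice it held 1 of 4031 cells in MT1301 (0.0248%, 0.000628 to 0.138), 118 of 2673 in MT1306 (4.41%, 3.67 to 5.26) and 29 of 6710 in MT1383 (0.432%, 0.290 to 0.620). WT1 alone contributed 76.8% of all Basal4 cells, and each genotype had a mouse with almost none. These intervals cover counting error only, and the gaps between mice of the same genotype were far wider than the intervals.

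On average Basal4 made up 14.3% ± 19.8 of all cells of a *WT/WT* mouse, and 1.62% ± 2.43 of a *MIS/MIS* mouse (SD, n = 3 each). The difference of -12.7 percentage points did not pass a two-sided exact permutation test of the 6 mice (p = 0.3, where 0.1 is the smallest p that 3 against 3 mice allow). As a share of basal cells the difference was -19.2 percentage points with the same exact p = 0.3. Without WT1 the difference was -1.41 percentage points. Since WT1 decides the size of the difference, each pattern was computed within a mouse and mice were weighted equally.

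**Figure D1:**
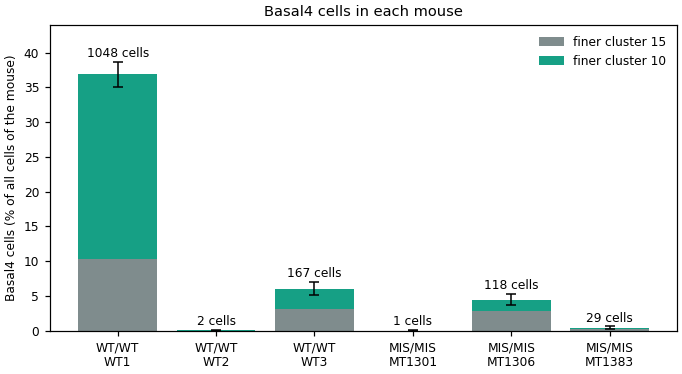
Basal4 cells as a percentage of all cells of each mouse, with exact 95% binomial intervals as error bars and the number of Basal4 cells above each bar. Bars are divided into the cells of finer clusters 10 and 15. WT1 reached 36.9%, WT3 6.03% and MT1306 4.41%, while the other mice stayed at or below 0.432%.

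Sums of UMIs were taken in the 4 mice with at least 20 Basal4 cells, WT1, WT3, MT1306 and MT1383, and the 3 cells of WT2 and MT1301 were left out of them. The sums ranged from 615675 UMIs in MT1383 to 35627548 in WT1, so values of MT1383 rest on the fewest molecules. In these mice the median Basal4 cell had 30306, 31847, 29507 and 18713 UMIs, against 34388.5, 30715, 32275.5 and 18432 in the other 7 basal clusters together. The share of mitochondrial UMIs was alike, with a median of 8.43% to 11.3% in Basal4 and a difference of -0.479 ± 0.589 percentage points to other basal cells (SD, n = 4). Of all cells, 134 carried a barcode that also occurred in another mouse, and 9 of these were Basal4 cells. In 5 Basal4 cells, all of WT1, more than 7500 genes were detected, above the limit that the study's methods give for potential doublets.

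The 5 markers of the label were at their highest level in Basal4 in each of the 4 mice, among the types with at least 20 cells in that mouse. *Krt13* lies on the minus strand of chromosome 11 from 100117327 to 100121566 (GENCODE M21, GRCm38) and encodes the keratin of non-cornified stratified epithelia that defines hillocks. It stood at 8349 CPM in WT1, 12331 in WT3, 5017 in MT1306 and 2881 in MT1383. In the other basal clusters of the same mice it stood at 263.9, 92.0, 63.0 and 54.8 CPM. The values of Basal4 and of other basal cells did not overlap, and among other basal cells WT1 had the highest value. Expressed as a difference of log2(CPM + 5) taken within a mouse, Basal4 was above other basal cells by 5.94 ± 0.87 (SD, n = 4).

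*Psca* (chromosome 15, 74714839 to 74717069, plus strand), a small GPI-anchored surface protein, was at 1252, 5606, 1000 and 619 CPM in Basal4 of WT1, WT3, MT1306 and MT1383, against 55.3, 85.6, 2.82 and 25.3 CPM in other basal cells. *Tgm3*, a transglutaminase, was at 181, 188, 42.0 and 107 CPM, against at most 1.51 CPM in the other basal cells of a mouse. *Calml3*, a calmodulin-like protein of stratified epithelia, was at 196, 547, 37.9 and 109 CPM against at most 1.99 CPM in other basal cells. *Lypd3*, another GPI-anchored protein of squamous cells, was lowest in MT1383 at 35.7 CPM and highest in WT3 at 160 CPM, while other basal cells had 2.16 to 6.73 CPM. The order of the mice differed from gene to gene, but WT3 led for all 5 markers.

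**Figure D2:**
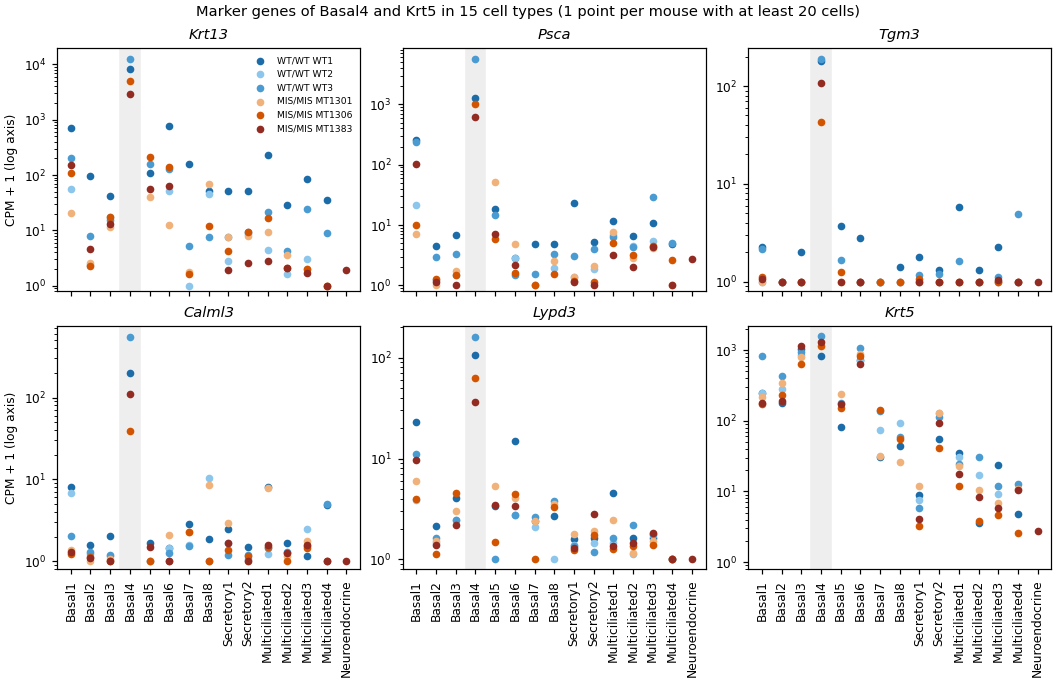
Level of the 5 marker genes and of *Krt5* in 15 cell types, as CPM + 1 on a log axis, with 1 point per mouse that has at least 20 cells of the type. In the shaded Basal4 column *Krt13* lies between 2881 and 12331 CPM, and the 75 values of the other types reach at most 770 CPM, while *Krt5* is shared with other basal clusters.

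The markers were not found in every Basal4 cell. After each cell was thinned to 5000 UMIs, 99.8% of Basal4 cells of WT1 had a UMI of *Krt13*, 94.0% of WT3, 84.7% of MT1306 and 55.2% of MT1383 (100, 96.4, 94.1 and 62.1% without thinning). In multiciliated cells, which should lack the gene, the shares were 16.3, 5.11, 0.768 and 0.418% thinned and 69.9, 19.8, 4.61 and 2.23% unthinned. Their median depths were 39899.5, 38652.5, 35499 and 23880 UMIs. In other basal cells the shares were 20.1, 8.61, 6.78 and 3.53% thinned and 66.3, 25.2, 16.1 and 7.09% unthinned. At full depth, a *Krt13* UMI was thus common outside Basal4 in WT1. The share in multiciliated cells was highest in the mouse with most Basal4 cells, and whether free RNA accounts for it was not tested. MT1383 stood apart from the label, since 11 of its 29 Basal4 cells had no *Krt13* UMI at full depth.

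The other markers were detected in a minority of Basal4 cells. Thinned to the same depth, *Psca* had a UMI in 30.5, 32.9, 16.9 and 10.3% of the Basal4 cells of WT1, WT3, MT1306 and MT1383 (45.6, 38.9, 28.8 and 13.8% unthinned). *Tgm3* was detected in 32.4, 22.8, 12.7 and 6.90%, *Calml3* in 23.6, 24.6, 2.54 and 10.3%, and *Lypd3* in 31.3, 32.9, 18.6 and 10.3%. All of these shares were above those in multiciliated cells, where *Psca*, *Tgm3*, *Calml3* and *Lypd3* reached at most 3.31, 0.904, 0.371 and 0.602% thinned. Unthinned, *Psca* reached 19.9% of multiciliated cells, in WT1. The thinned shares of MT1383 rest on 3, 2, 3 and 3 of 29 cells for these 4 genes. That of *Calml3* in MT1306 rests on 3 of 118. Nearly all Basal4 cells of WT1 and WT3 thus carried *Krt13*, and a smaller share carried each of the remaining markers.

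Across the transcriptome, 7854 genes were compared, those with a mean over the 2 populations and the mice of at least 10 CPM. Of these, 104 were higher in Basal4 than in other basal cells in each of the 4 mice (1.32% of the genes compared). Higher meant by 1 or more on the log2(CPM + 5) scale, a 2-fold difference. In the other direction, 187 genes were lower by as much in each mouse (2.38%), or 281 when MT1383 was left out. The cells had been clustered on these genes, so the counts describe the cluster and no test was made. A gene low in other basal cells can pass the filter through Basal4 alone, which favours a higher call. The list counts below are therefore also descriptions, to be read beside 1.32% higher and 2.38% lower among all genes compared. Some lists also hold markers of the label. The median difference over all 7854 genes was -0.13. Of the 104 higher genes, 73 were at their highest in Basal4 of all types in each of the 4 mice. Their selection in the same mice favours this, so the count is not support for specificity. The threshold fell between *Gm14137*, at 1.01 in its lowest mouse, and *Dusp22*, at 0.98. Of 12 hillock genes, all past the filter, 5 were higher, none lower and 7 neither, with a median difference of 0.63. Only 7 of the 12 lay above other basal cells in each of the 4 mice, and 2 lay below in each. The name hillock-like thus rests on part of that list.

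The 20 leading genes, ranked by the mouse with the smallest difference, were led by *Krt13* and *Psca*. *Nccrp1*, an F-box-like protein of squamous epithelia, followed with 194, 398, 68.3 and 92.6 CPM in WT1, WT3, MT1306 and MT1383 against at most 8.08 CPM in other basal cells. Besides *Tgm3*, the transglutaminase *Tgm1* was among them at 62.2, 109, 48.2 and 40.6 CPM, against 2.16 to 3.94 CPM. The membrane serine proteases *Tmprss11b* and *Tmprss11g* were above other basal cells by 2.95 ± 0.36 and 2.74 ± 0.25 (log2, SD, n = 4). *Sptssb*, a subunit of the enzyme that starts sphingolipid synthesis, was at 297, 204, 72.9 and 68.2 CPM against at most 20.6 CPM, and *Cyp27a1*, sterol 27-hydroxylase, was at 19.5 to 39.7 CPM against at most 1.96 CPM. *Gpnmb*, a transmembrane glycoprotein, was at 816 to 1191 CPM in Basal4 and, unlike most leading genes, high in a further type, with a mean of 496 CPM in Basal5. *Csta1*, a cysteine protease inhibitor of the cornified envelope, varied most between mice, with 63.7, 527, 36.6 and 21.1 CPM. *Plac8*, *4833423E24Rik*, *Maf*, *Krt4*, *Krt6a*, *Dsg3* and *Pitx1* completed the list.

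**Figure D3:**
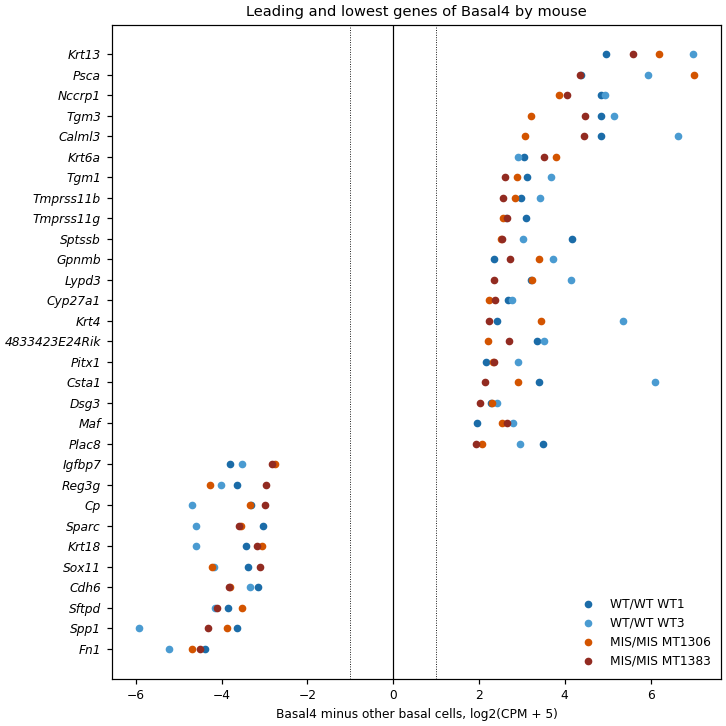
Difference between Basal4 and other basal cells for the 20 leading and 10 lowest genes, in log2(CPM + 5), with 1 point per mouse and dotted lines at differences of 1 and -1. All 4 mice lie beyond the line for every gene shown, and WT3 is set apart for *Krt4* (5.35) and *Csta1* (6.11).

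Promoters of leading genes were read for short motifs because these genes were high together. Of the 20 genes, 11 had an entry in the RefSeq promoter table (GRCm38.p6), with 14 promoters that run from 250 bases before to 50 bases after a start site. The AP-1 letters TGANTCA were present on either strand in 3 of the 14 (21.4%), all of *Krt13* and *Gpnmb*, against 7.81% of all 32851 promoters in the table. The grainyhead-like (GRHL) letters AACNNGTT were in 2 (14.3%, against 4.20%), those of *Tmprss11b* and *Tmprss11g*. The KLF letters CACCC were in 57.1% against 57.5%, and the TEAD letters GGAATG in 14.3% against 14.7%. Matches of different motifs did not overlap in these promoters, and with so few promoters the shares are a description. The 250 bases before the start site are given 5′ to 3′ on the strand of the gene for *Krt13* (chr11:100121567-100121816, minus strand), for *Tgm3* (chr2:130012090-130012339, plus strand) and for *Tmprss11g* (chr5:86518601-86518850, minus strand), chosen as the defining keratin, a marker with KLF and TEAD letters, and the gene with GRHL letters in tandem. Capitals mark the motif matches on either strand.
Krt13: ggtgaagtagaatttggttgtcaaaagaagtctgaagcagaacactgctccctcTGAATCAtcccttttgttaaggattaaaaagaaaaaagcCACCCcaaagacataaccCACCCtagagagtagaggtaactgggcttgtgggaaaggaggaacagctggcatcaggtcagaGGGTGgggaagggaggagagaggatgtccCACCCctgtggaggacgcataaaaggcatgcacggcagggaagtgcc
Tgm3: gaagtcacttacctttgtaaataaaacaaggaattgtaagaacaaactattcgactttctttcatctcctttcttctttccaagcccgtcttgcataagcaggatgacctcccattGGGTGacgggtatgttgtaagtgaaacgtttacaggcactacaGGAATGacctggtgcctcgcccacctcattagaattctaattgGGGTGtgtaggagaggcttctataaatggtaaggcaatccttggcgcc
Tmprss11g: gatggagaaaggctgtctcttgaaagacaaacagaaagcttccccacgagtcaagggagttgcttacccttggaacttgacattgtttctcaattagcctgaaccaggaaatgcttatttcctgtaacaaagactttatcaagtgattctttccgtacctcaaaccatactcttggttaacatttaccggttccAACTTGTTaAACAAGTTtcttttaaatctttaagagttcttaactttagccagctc
The *Krt13* stretch holds 1 AP-1 match at -196 and 4 KLF matches, and the *Tmprss11g* stretch holds GRHL matches that begin at -56 and -47, counted from the start site.

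Of 17 keratins that passed the filter, 6 were higher and 3 lower in each mouse, with a median difference of 0.40. *Krt4*, the partner of *Krt13* in mucosal squamous cells, was at 4680, 6408, 2851 and 1930 CPM in WT1, WT3, MT1306 and MT1383, against 866, 152, 256 and 406 CPM in other basal cells. *Krt6a*, a keratin of activated and mucosal squamous cells, was at 1358, 2712, 926 and 885 CPM against at most 359 CPM. *Krt16* (2.20 ± 0.59), *Krt80* (1.77 ± 0.57) and *Krt5* (1.72 ± 0.50) were the other higher members (log2, SD, n = 4). All 3 lower members were keratins of simple epithelia. *Krt18* was at 36.5, 26.0, 51.2 and 61.7 CPM against 446, 744, 462 and 592 CPM, its partner *Krt8* was lower by 3.04 ± 0.82 and *Krt19* by 1.76 ± 0.57. *Krt7*, also a keratin of simple epithelia, did not pass, at 1005, 1724, 1361 and 1166 CPM against 943 to 1182 CPM. In the mean over mice, *Krt18* was lower in Basal4 than in each of the other 14 types with at least 20 cells in a mouse, where the lowest was Basal3 with 184 CPM.

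Of 10 desmosome genes, 4 were higher, 1 lower and 5 neither, with a median difference of 0.87. The higher members were *Dsg3*, a desmosomal cadherin (2.26 ± 0.17), *Perp*, a desmosomal membrane protein (2.03 ± 0.26), *Pkp1*, a plakophilin of stratified epithelia (1.64 ± 0.11), and *Dsp*, desmoplakin, which ties the plaque to keratins (1.52 ± 0.28). These 4 had small differences between mice, and *Perp* stood at 953, 1318, 834 and 645 CPM against 191 to 252 CPM. *Pkp2*, the plakophilin of simple epithelia, was at 4.34 to 12.99 CPM against 35.5 to 39.3 CPM. Of 16 tight and gap junction genes, none was higher and *Cldn7*, a claudin, was lower (-1.65 ± 0.78), with a median of -0.12.

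Of 37 cornified envelope genes, 30 are in the table and 14 passed the filter on low values, of which 4 were higher, none lower and 10 neither. *Evpl*, envoplakin, a scaffold of the envelope, was at 172, 253, 113 and 97.5 CPM against 22.1 to 41.1 CPM, and its partner *Ppl*, periplakin, was at 128 to 321 CPM against 82.5 to 101 CPM without passing in each mouse. *Sprr3*, a small proline-rich envelope protein of oesophageal cells, was at 25.3, 364, 67.4 and 1.62 CPM. *Cnfn*, cornifelin, was at 166 CPM in WT3 and at most 1.32 CPM in the other 3 mice. Both were highest in WT3, and Basal4 of MT1383 did not differ from its other basal cells for *Sprr3* (-0.04) or *Cnfn* (-0.02). *Spink5*, an inhibitor of skin proteases, had the same order, with 30.3, 414, 35.7 and 3.25 CPM. *Ivl*, involucrin, an envelope precursor, did not have it, with 13.3, 35.1, 39.3 and 8.12 CPM against 8.90 to 33.0 CPM in other basal cells.

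Surface and calcium-binding families moved in part. Of 13 genes of the Ly6/uPAR family of GPI-anchored and secreted proteins, 4 were higher, namely *Psca*, *Lypd3*, *Ly6d* (2.18 ± 0.41) and *Ly6g6e* (1.54 ± 0.37), and *Lypd2* was lower (-2.60 ± 0.91). *Psca* and *Lypd3* are markers of the label, counted again here. Of 25 surface proteases and kallikreins, 20 were measured and 12 passed the filter. Of these, *Tmprss11a*, *Tmprss11b*, *Tmprss11g* and *Prss27* were higher, against 1.32% of all genes compared. *Prss27*, a membrane-anchored serine protease, was at 44.5, 80.2, 21.9 and 12.99 CPM against at most 4.55 CPM. Of 18 protease inhibitors, 2 were higher, *Csta1* and *Serpinb5* (1.39 ± 0.11), and 5 lower, among them *Slpi*, the secretory leukocyte protease inhibitor (-1.78 ± 0.53). Of 13 S100 and calmodulin-like genes, *Calml3*, itself a marker of the label, *S100a3* and *S100a16* were higher and *S100a1* lower. Other groups gave few members. Of 12 skin barrier lipid genes *Alox15* and *Fabp5* were higher, of 14 retinoid genes *Adh7* and *Fabp5*, and of 6 interleukin-1 family and alarmin genes *Il1rn*, the receptor antagonist (1.91 ± 0.47), while none of 8 genes of EGF receptor ligands and receptors passed.

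Transcription factors of squamous differentiation were higher in a small share. Of 34 that passed the filter, 6 were higher and none lower, with a median of 0.31. *Grhl3*, a grainyhead factor of barrier formation, was at 41.0, 42.9, 23.8 and 12.99 CPM in WT1, WT3, MT1306 and MT1383, against 2.33, 1.68, 0.956 and 1.03 CPM in other basal cells. *Klf4*, a zinc finger factor of terminal differentiation, was at 293, 407, 206 and 154 CPM against 37.8 to 99.8 CPM. *Zfp750*, a partner of *Klf4* in epidermis, was higher by 2.09 ± 0.47, *Hopx*, a homeodomain-only protein, by 2.56 ± 0.94, *Maf* by 2.48 ± 0.37 and *Prdm1*, a repressor, by 1.29 ± 0.16 (log2, SD, n = 4). *Klf4*, *Grhl3*, *Zfp750* and *Prdm1* were at their highest in Basal4 in each of the 4 mice.

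*Nkx2-1* (chromosome 12, 56531958 to 56536908, minus strand), the homeodomain factor that specifies lung and trachea, was at 1.68, 0.868, 0.813 and 3.25 CPM in Basal4 of WT1, WT3, MT1306 and MT1383, against 35.5, 67.5, 66.3 and 59.7 CPM in other basal cells (-3.20 ± 0.51 on the log2 scale, SD, n = 4). Outside Basal4 and Basal5 the 70 values of single types in single mice lay between 24.9 and 108.8 CPM. Basal5 was also low, with 1.80, 7.36, 6.53 and 2.83 CPM in the same mice, and the difference between Basal4 and Basal5 (-0.50 ± 0.61) was within its spread. A UMI of *Nkx2-1* was found in 5 of 1048 thinned Basal4 cells of WT1 (0.477%) and 1 of 29 of MT1383 (3.45%). In WT3 it was found in 0 of 167, and in MT1306 in 0 of 118, which at the thinned depth allows up to 1.80 and 2.54% of cells with a UMI. With all UMIs of a cell the shares were 3.15, 2.99, 0.847 and 6.90% in WT1, WT3, MT1306 and MT1383. Multiciliated cells of the same mice had 21.8 to 25.8% thinned and 59.6 to 72.0% unthinned.

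Of 11 airway identity genes that passed the filter, 2 were lower and none higher, with a median of -0.72. *Sftpd*, surfactant protein D, was the other, at 15.6, 10.4, 18.7 and 12.99 CPM against 267 to 307 CPM in other basal cells. Unlike *Nkx2-1*, *Sftpd* separated Basal4 from Basal5, which had 189, 252, 171 and 151 CPM. *Sox2*, a foregut factor shared by trachea and oesophagus, did not differ (-0.02 ± 0.12), and *Foxa1*, an endoderm factor, was slightly lower in each mouse (-0.53 ± 0.04). *Irx1*, an Iroquois factor of lung, and *Isl1*, a LIM homeodomain factor, were added after their values were seen. *Irx1* was at 0.926, 0.695, 5.15 and 3.25 CPM against 18.9 to 39.0 CPM, and *Isl1* at 1.46, 3.65, 0.271 and 14.6 CPM against 25.2 to 44.1 CPM. *Isl1* was at 23.1 to 55.0 CPM in Basal5.

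Of 8 genes of the oesophageal and oral list that passed the filter, *Pitx1*, *Hoxc4* and *Tgm3* were higher and none lower, with a median of 1.42. Among all genes compared 1.32% were higher. *Tgm3* is also a marker of the label, so it is no separate support here. *Pitx1* (chromosome 13, 55825051 to 55836192, minus strand), a homeodomain factor of oral ectoderm and hindlimb, had the most even level of the leading genes, at 328, 355, 325 and 307 CPM against 69.1, 43.0, 61.2 and 55.7 CPM in other basal cells. Its 75 values in other types reached at most 157 CPM, in Basal5 of MT1306. A UMI was found in 76.6, 80.2, 73.7 and 79.3% of thinned Basal4 cells and in 24.1 to 27.1% of multiciliated cells. *Hoxc4*, a Hox gene, was at 25.5, 32.6, 29.8 and 12.99 CPM against 3.74, 8.86, 1.56 and 0.997 CPM. Its neighbour *Hoxc5*, too low for the filter, was at 6.23, 9.20, 10.3 and 8.12 CPM against at most 2.07 CPM. *Pax9*, a pharyngeal factor, was at 66.6 to 140 CPM in Basal4 and did not pass (0.70 ± 0.38). The pair of low *Nkx2-1* and high *Pitx1* thus held in all 4 mice, including MT1383, in which many Basal4 cells had no *Krt13* UMI.

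**Figure D4:**
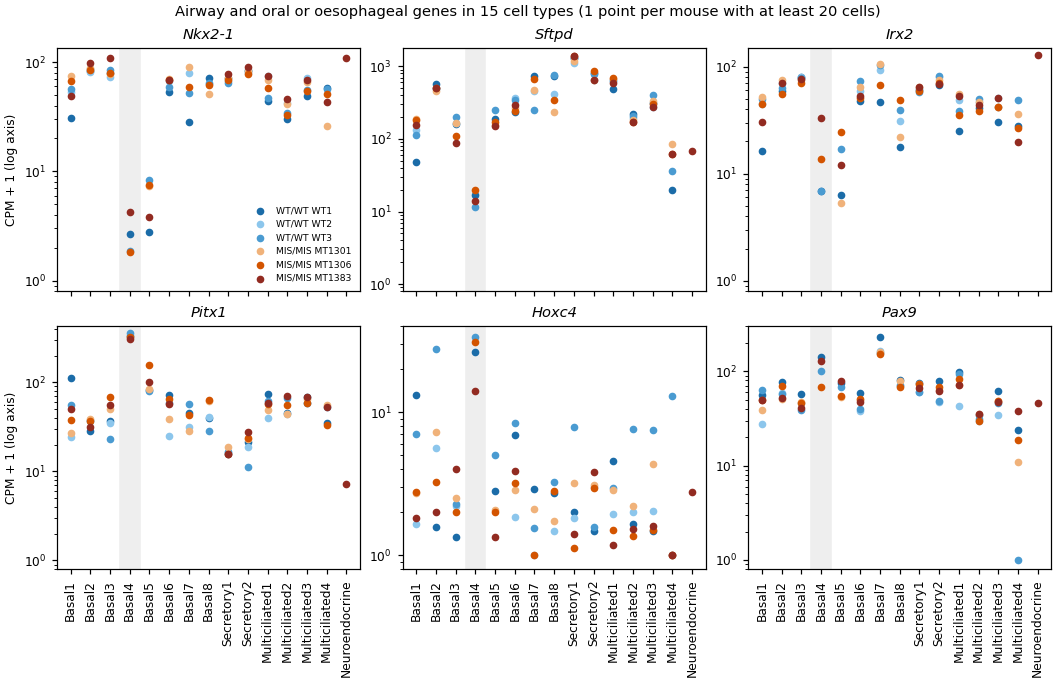
Level of airway genes (*Nkx2-1*, *Sftpd*, *Irx2*) and of oral or oesophageal genes (*Pitx1*, *Hoxc4*, *Pax9*) in 15 cell types, as CPM + 1 on a log axis, with 1 point per mouse that has at least 20 cells of the type. *Nkx2-1* is low in the shaded Basal4 column and in Basal5 only, and *Pitx1* lies between 307 and 355 CPM in Basal4, above every other type.

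Basal5 was the type whose profile was most like Basal4. Across 7854 genes Spearman's rho between the 2 profiles averaged 0.889 over 4 mice, followed by 0.850 for Basal3 (a description across genes, which share libraries and depth). Set against Basal5 alone, 104 of 7602 genes were higher in Basal4 in each mouse (1.37%) and 104 lower (1.37%). *Krt13*, *Psca*, *Nccrp1*, *Tgm3* and *Calml3* were again higher, as were the basal keratins *Krt14* (3.53 ± 0.41) and *Krt5* (3.03 ± 0.20). *Krt4* was shared to some degree, at 1923, 1451, 1200 and 1205 CPM in Basal5, and its difference did not reach the threshold in MT1383 (0.68). *Reg3g*, an antimicrobial lectin, *Sftpd*, and *Muc1*, a membrane mucin, were lower in Basal4 than in Basal5.

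Among the 10 lowest genes, 5 were at their highest in Basal1 and differed little between Basal4 and either Basal5 or Basal8. *Fn1*, fibronectin, was at 0.954, 1.56, 1.08 and 0 CPM against 119, 240, 152 and 107 CPM, and *Spp1*, osteopontin, *Cdh6*, a cadherin, *Sox11*, a transcription factor, and *Sparc*, a matrix protein, were likewise low. Averaged over mice, *Fn1* was at 526 CPM in Basal1 and at most 5.35 CPM in any other type. Set against Basal5 the differences were 0.12 for *Fn1*, 0.30 for *Spp1*, -0.19 for *Cdh6*, 0.04 for *Sox11* and 0.14 for *Sparc*. Set against Basal8, in 3 mice, they were 0.26, 0.34, 0.03, -0.23 and -0.07, and 4 of the 10 lowest genes stayed lower than in Basal8. *Cp*, ceruloplasmin (-3.58 ± 0.75), *Reg3g* (-3.71 ± 0.57) and *Igfbp7*, an IGF-binding protein (-3.23 ± 0.52), were the remaining lowest genes beside *Sftpd* and *Krt18*.

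Of 16 secretory genes, 5 were lower, 1 higher and 10 neither, with a median of -0.78, and the 23 genes of the list summed to 12027 to 19359 CPM in Basal4 against 10472 to 17143 CPM in other basal cells. *Scgb3a2*, a secretoglobin, was at 117, 19.8, 164 and 314 CPM against 597, 600.5, 699.8 and 2235 CPM, and *Lcn2*, lipocalin, was lower by 3.23 ± 1.26. The exception was *Cyp2a5*, a cytochrome P450, at 1465, 562, 763 and 771 CPM against 506, 133, 131 and 330 CPM. Of 14 cell cycle genes, 6 were lower and none higher, with a median of -1.32. *Top2a*, a topoisomerase of dividing cells, was at 0.674, 2.60, 0.271 and 1.62 CPM against 26.1 to 43.3 CPM, and *Mki67* at 0.646 to 2.26 CPM against 14.2 to 26.9 CPM. Cycling cells are gathered in Basal6, where *Top2a* averaged 390 CPM, and the comparison includes that cluster.

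None of the 20 multiciliated genes passed the filter in this comparison, and they summed to 41.9 to 61.7 CPM in Basal4 against 57.0 to 107 CPM in other basal cells. The 14 measured ionocyte, tuft and neuroendocrine genes summed to 0.813 to 6.50 CPM, and the 18 measured non-epithelial genes to 70.0 to 125 CPM against 255 to 401 CPM, with 7 of them at 0 in Basal4 of each of the 4 mice, among them *Ptprc* and *Cd3e* of leukocytes and *Col1a2* and *Col3a1* of fibroblasts. Most of that sum was *Cd14*, a receptor of monocytes that secretory cells here also carried, at 83.5, 53.7, 74.5 and 89.3 CPM against 190 to 237 CPM. Immediate early and heat shock genes, which respond to dissociation, summed to 8082 to 8684 CPM against 7351 to 8515 CPM, and none of 20 passed. Of 11 Notch genes *Hey1* was lower, and of 3 mucins *Muc1*.

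Within Basal4, the deposited table at a finer clustering (resolution 0.6) gave 2 clusters, numbered 10 and 15. Cluster 15 held 28.1, 52.1, 63.6 and 72.4% of the Basal4 cells of WT1, WT3, MT1306 and MT1383. In WT1, WT3 and MT1306, the mice with at least 20 cells of each, 308 of 7452 genes were higher in cluster 10 (4.13%) and 175 higher in cluster 15 (2.35%). Cells of cluster 10 were deeper, with medians of 32486.5, 36520 and 35800 UMIs against 25009.5, 27939 and 25200. These clusters were also made from the genes compared, so the values are a description.

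*Psca* was at 1612, 10008 and 2254 CPM in cluster 10 of WT1, WT3 and MT1306 and at 3.13, 4.34 and 1.46 CPM in cluster 15, a log2 difference of 8.72 ± 1.24 (SD, n = 3). *Calml3*, *Ly6d*, *Hopx*, *Nccrp1* and *Tgm3* were divided alike, and *Calml3* stood at 251, 976 and 84.9 CPM against at most 3.26 CPM. *Krt13* was present in both, at 9466, 19089 and 8494 CPM in cluster 10 and 4482, 3731 and 2246 CPM in cluster 15. *Krt4* was at 5535, 10793 and 5424 against 1718, 829 and 801 CPM. *Ltf*, lactoferrin (5.96 ± 0.56), *Cyp2a5* (7.11 ± 0.50), *Cybb*, an oxidase subunit (5.04 ± 0.89), and *Arg1*, arginase (5.08 ± 1.36), were also led by cluster 10, although *Ltf*, *Cybb* and *Arg1* did not reach the threshold for Basal4 as a whole. Of 13 secretory genes compared, 9 were higher in cluster 10 and none in 15, and of 15 cornified envelope genes, 7 and 1.

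Of 24 basal cell genes, 18 were higher in cluster 15 and none in cluster 10, with a median difference of -1.98. *Krt14* was at 2784, 3586 and 2427 CPM in cluster 15 of WT1, WT3 and MT1306 and at 261, 634 and 18.9 CPM in cluster 10. *Col17a1*, a hemidesmosome collagen, was at 470.0, 386 and 376 against 69.4, 34.7 and 54.3 CPM, and *Trp63* at 202, 228 and 161 against 69.4, 56.1 and 45.2 CPM. *Snai2*, a repressor, was at 75.9 to 94.3 against 1.22 to 3.00 CPM, and *Jag2*, a Notch ligand, at 69.9 to 75.0 against 1.55 to 3.83 CPM. *Pitx1* did not differ between the clusters, at 324, 308 and 328 CPM in cluster 10 and 342, 414 and 323 in cluster 15, and *Nkx2-1* was at most 1.84 CPM in both. Other genes of the identity lists divided the clusters. Of 8 airway identity genes compared, *Cbr2*, *Cyp2f2* and *Aldh1a1* were higher in cluster 10, and of 8 oesophageal and oral genes, *Mal*, *Tgm3* and *Spink5*, with none higher in cluster 15 in either list.

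**Figure D5:**
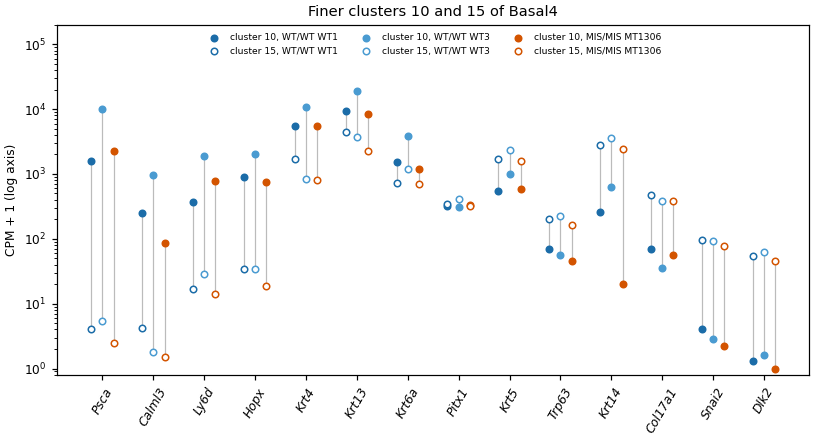
Level of 14 genes in finer clusters 10 (filled) and 15 (open) of Basal4, as CPM + 1 on a log axis, with a line joining the values of each of 3 mice. *Psca* is at 1612 CPM or more in cluster 10 and at 4.34 CPM or less in cluster 15, *Krt14* runs the other way, and *Pitx1* is at the same level in both.

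The 104 genes higher in Basal4 than in other basal cells leaned towards cluster 10. Of them, 47 were higher in cluster 10 and 8 in cluster 15. Among all 7452 genes compared between the clusters, 308 (4.13%) and 175 (2.35%) were. A further 49 of the 104 passed the filter without reaching the threshold either way. *Krt6a*, *Tgm1*, *Dsg3*, *Perp*, *Klf4*, *Pitx1*, *Maf* and *Gpnmb* were in the last set. At the level of cells, *Psca* and *Krt14* UMIs met in 3.91, 12.6, 0 and 0% of thinned Basal4 cells of WT1, WT3, MT1306 and MT1383, where 10.7, 22.3, 9.91 and 6.78% would meet if they were independent. Each thinned cell with a *Psca* UMI also had a *Krt13* UMI in all 4 mice, so both met in 30.5, 32.9, 16.9 and 10.3% of cells. If independent, 30.5, 31.0, 14.4 and 5.71% would meet, so in WT1 the overlap was almost given. In MT1383 it rests on 3 cells.

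Among Basal4 cells of WT1, WT3 and MT1306, the mice with at least 50, the gene whose level ran most like *Krt13* was *Krt4*, with a mean Spearman's rho of 0.71 (0.68 to 0.75 in the 3 mice, over 4441 genes compared in cells thinned to equal depth). *Gsta4*, a glutathione transferase (0.63), *Gsto1*, another glutathione transferase (0.61), *Krt6a* (0.58) and *Anxa1*, annexin A1 (0.57), followed. At the other end were *Ifitm3*, an interferon-induced membrane protein (-0.51), *Mt1*, a metallothionein (-0.51), and *Rpl3*, a ribosomal protein (-0.46). Cells of a mouse share a library, so these values are a description. *Anxa1* and *Gsto1* were higher in cluster 10, by 2.47 ± 0.12 and 2.59 ± 0.47 (log2, SD, n = 3).

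Genotype was compared within Basal4 on the UMIs summed per mouse, with 2 mice of each genotype. In limma's voom fit 0 of 10591 genes passed an adjusted p of 0.05 in either direction (0% called higher and 0% lower), and 748 had an unadjusted p under 0.05 (7.06%). The lowest adjusted p was 0.071, for *Tgfb2*, a growth factor, with 19.2 and 16.3 CPM in WT1 and WT3 and 73.9 and 76.3 CPM in MT1306 and MT1383 (log2 difference 2.03 ± 0.15, SE, limma). *Wdfy1*, an endosomal adaptor, at 13.7 and 15.5 against 54.7 and 55.2 CPM, and *Itga2*, a collagen-binding integrin subunit, at 1.99 and 1.56 against 14.1 and 21.1 CPM, were next, each with an adjusted p of 0.107 in limma. The genotypes did not overlap for 37.4% of all genes, so separation of 2 against 2 mice was common. Without WT1 the fit called 622 genes and without WT3 386, with 1 residual degree of freedom among 3 mice, and without either *MIS/MIS* mouse it called none.

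The 5 markers had lower values in *MIS/MIS* Basal4 cells and did not pass. The log2 difference was -1.50 for *Krt13* (adjusted p = 0.39 in limma), -1.89 for *Psca* (0.61), and -1.83, -2.83 and -1.25 for *Tgm3*, *Calml3* and *Lypd3*. Cluster 15 made up more of Basal4 in MT1306 and MT1383 than in WT1 and WT3. All 5 markers were lower in cluster 15 than in cluster 10 in the 3 mice compared. The part of cluster 15 in these values was not separated in that fit. In cluster 15 alone *Krt13* was at 4482 and 3731 CPM in WT1 and WT3 and at 2246 and 1021 CPM in MT1306 and MT1383 (-1.40, adjusted p = 0.52 in limma). In the same fit, added after seeing the data, 2 of 9484 genes passed: *Krt8*, at 14.8 and 17.4 against 78.4 and 58.1 CPM (adjusted p = 0.021), and *Msln*, mesothelin, at 58.6 and 59.2 against 181 and 144 CPM (adjusted p = 0.034). *Dnaaf5* did not pass in the fit over Basal4 (-0.53, adjusted p = 0.87), and genotype, mouse and the unequal number of cells cannot be told apart with so few animals.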

How the data were processed

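The table deposited by the authors holds unnormalized UMI counts, and a further table gives the cluster of each cell. Per the labels and methods, reads were processed with Cell Ranger (version 7.1.0 in the submitters' processing notes, another version in the study's methods) on mm10, filtered on mitochondrial share (25% or less) and genes per cell (2500 to 7500) and clustered and annotated by hand in Seurat. The test used on these cells is not given in the sources used here. Every value was a whole number. Because the deposited columns are separated by a mistyped tab, they were recorded as a unit other than counts, and limma was used in place of a count test. The mutant libraries bear animal numbers found in no sample title, and were used as replicates of their genotype.

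For each mouse the UMIs of all cells of a type were added up, and differences are of log2(CPM + 5) within a mouse. Mice with at least 20 cells were used. Genes were kept when the mean of the 2 populations compared, averaged over these mice, was at least 10 CPM. A gene was higher or lower when every mouse differed by at least 1. Cluster comparisons were not tested. Genotypes were fitted with limma 3.58.1 voom in R 4.3.3, TMM factors, a low-count filter (10 counts at the median library size, total of 15), and Benjamini-Hochberg adjustment. The pipeline was tested on simulated data. Thinning to 5000 UMIs left out no cell. No doublet caller was run, and the limit of 7500 genes was an alternative, since deposited cells exceed it. Intervals are exact binomial (95%) and cover counting error only, and a count of 0 was given a limit of 3 cells. Other steps used Python 3.11.15 with pandas 2.3.3, numpy 2.4.6 and scipy 1.17.1, and figures matplotlib 3.10.9. Gene positions come from GENCODE M21, promoters from RefSeq GRCm38.p6.

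The members and the 26 gene lists were chosen with earlier results of these data known. Genes named were the 5 markers, the 20 leading and 10 lowest genes, up to 15 per finer cluster, members of lists by level or difference, the genes most and least like *Krt13*, and *Dnaaf5*. Promoters were those of leading genes. Alternatives were other pseudocounts, filters, comparison populations, depths, scalings and mice left out.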

Additional observations from a re-analysis of the deposited data

How the results depend on the processing

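The counts of genes depended on the threshold and on the mice used. With a pseudocount of 20 CPM, 48 genes were higher and 83 lower in Basal4 than in other basal cells, and with at least 50 CPM 51 and 70. Both settings only remove genes by construction, and of the 20 leading genes 17 and 13 stayed higher. Against Basal8 cells 209 genes were higher, against all other cells 532 were lower, and in the mice with at least 50 Basal4 cells 281 were lower. Leaving out each mouse in turn gave 108 to 139 higher and 192 to 281 lower genes. A call needs every mouse, so these counts rise largely by construction and do not measure robustness. Against Basal5 cells, a comparison added after seeing the data, 104 were lower. The cause was not tested for these populations. Between finer clusters 10 and 15 a pseudocount of 20 CPM gave 159 and 87 genes and at least 50 CPM gave 142 and 83, both added after seeing the data.

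Of 612 values of 36 gene differences under the alternatives, 605 kept their direction. The exceptions were *Fn1* (0.26), *Spp1* (0.34) and *Cdh6* (0.031) against Basal8, and *Fn1* (0.12), *Spp1* (0.30), *Sox11* (0.037) and *Sparc* (0.14) against Basal5. Of 374 values of 22 list medians, the protease inhibitors changed direction against Basal5 (0.12). Against all other cells the difference in median UMIs was -5152 and in genes -828, and with all UMIs *Tgm3*, *Calml3* and *Lypd3* were in 30.2, 27.5 and 46.8% of Basal4 cells on average, or *Lypd3* in 8.82% with at least 2 UMIs.

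Without the low-count filter 6 genes passed between the genotypes, and in finer cluster 15 alone 2. Leaving out WT1 gave 622, WT3 386 and either other mouse 0, with a lone mouse of that genotype left and assumed to vary like the others, and the share difference ran from -19.8 to -1.41 percentage points. No paired analysis was possible because the *MIS/MIS* libraries carry no number that the *WT/WT* libraries share. With 29 Basal4 cells in MT1383 and 3 in WT2 and MT1301 together, depth limits what can be said of those mice.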
